A study of Mus musculus with 6 samples.

Results

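The tripartite motif (Trim) family was followed through RNAseq libraries of 2 mouse mammary tumour cell lines, J110 and SSM3. Every gene whose symbol is Trim followed by a number, with or without a letter from a to d, was taken as a member, which gave 68 of the 52636 genes in the counts table. J110 is a line grown from tumours of mice with an AIB1 transgene, a cDNA placed behind the MMTV LTR, and SSM3 cells from mammary tumours of genetically altered 129SvEv mice. Each line has 3 biological replicates, grown as cultured cells for which the labels name no treatment and no animal age. Serum, CO2 and medium supplements differed together with the line, so the cell line and its culture cannot be told apart. The libraries sampled the 3′ ends of polyadenylated transcripts, and raw counts per gene were compared.

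TRIM proteins are built from a RING finger, 1 or more B-boxes and a coiled coil, and most act as E3 ubiquitin ligases that attach ubiquitin to other proteins. The domain at the C-terminus differs between members and sets what each one binds. Some members limit virus infection or tune innate immune signalling, others sit on chromatin, microtubules or membranes. In the mammary gland the family is known for Trim25, first described as an estrogen-responsive finger protein, and for Trim24 and Trim28, cofactors of transcription.

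Total counts were from 5209740 to 5416305 in J110 and from 4200785 to 4792941 in SSM3. Levels are in CPM, counts relative to these totals after TMM scaling, and 3 counts, taken as the floor, correspond to between 0.578 and 0.668 CPM. The transgene did not check the labels. Ncoa3, which encodes AIB1, was counted 110, 106 and 102 times in J110 and 181, 199 and 186 times in SSM3, not higher in J110, and it shares exons with Sulf2. No gene was used here to check the SSM3 label. The estrogen receptor gene Esr1 was counted 31, 15 and 10 times in J110 and 222, 175 and 193 times in SSM3, and the progesterone receptor gene Pgr 0, 0 and 2 times in J110 and 1638, 1859 and 1719 times in SSM3. Cdh1, which encodes E-cadherin, was counted 21, 11 and 28 times in J110 and 6019, 6369 and 7179 times in SSM3. Not every epithelial gene was higher in the libraries labelled SSM3, as the keratin gene Krt18 was counted 7401, 7330 and 6777 times in J110 and 4223, 4510 and 5085 times in SSM3. The epithelial marker Epcam was also nearly absent from J110, with 2, 1 and 7 counts against 2376, 2404 and 2412 in SSM3, while the keratin gene Krt8 had at least 6182 counts in every library of both lines. Genes nearly silent in one line but abundant in the other kept a trace of counts, largest in J110 replicate 3 (0.256% of their SSM3 level) and SSM3 replicate 2 (0.414% of their J110 level), and its part in the values near the floor was not tested. Markers of other cell types differed too. Of 5 endothelial markers, 3 were above the floor in J110 and 0 in SSM3, with sums of 158 to 181 CPM against 0 to 0.425 CPM, nearly all of it Cdh5, and Tie1 had no count. Of 6 fibroblast markers, 3 were above the floor in J110 and 2 in SSM3, with sums of 1.54 to 4.38 CPM against 1336 to 1480 CPM, nearly all of the latter Dcn, and Col1a2 and Lum had no count. Their part in the differences of the members was not tested. Genes at the ribosomal RNA locus of chromosome 17 took from 15.1% to 17.2% of the counts in J110 and from 0.779% to 1.27% in SSM3.

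Of the 68 members, 33 passed the filter on low counts and were tested between the lines, 18 had some counts but too few, and 17 had no count in any library. A member could pass the filter through 1 line alone. Among the 33 tested, 28 had an adjusted p below 0.05 from edgeR's quasi-likelihood test with Benjamini-Hochberg adjustment over all 12284 genes tested, which is 84.8% where the background over all genes was 77.9%. Of these, 11 (33.3%) were higher in SSM3, against a background of 38.6%, and 17 (51.5%) were lower in SSM3, against a background of 39.2%. This split depends on the scaling, since with library size only 5373 of all genes were higher and 4140 lower, in place of 4746 and 4820, and 12 members were higher and 14 lower. The median log2 fold change, SSM3 against J110, was -0.52 over the members tested and -0.014 over all genes tested. Without J110 replicate 3, when 35 members passed the filter, the median over the members was -0.29. Changes of at least 4-fold were called for 5 members (15.2%, background 21.7%) and of at least 2-fold for 17 members (51.5%, background 43.7%). J110 and SSM3 values were fully separated for 29 members (87.9%, background 79.6%). Summed over all members, the level was between 1071 and 1132 CPM in J110 and between 1022 and 1040 CPM in SSM3. In bulk libraries, fewer cells that express a gene and less RNA per cell cannot be told apart.

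**Figure D1:**
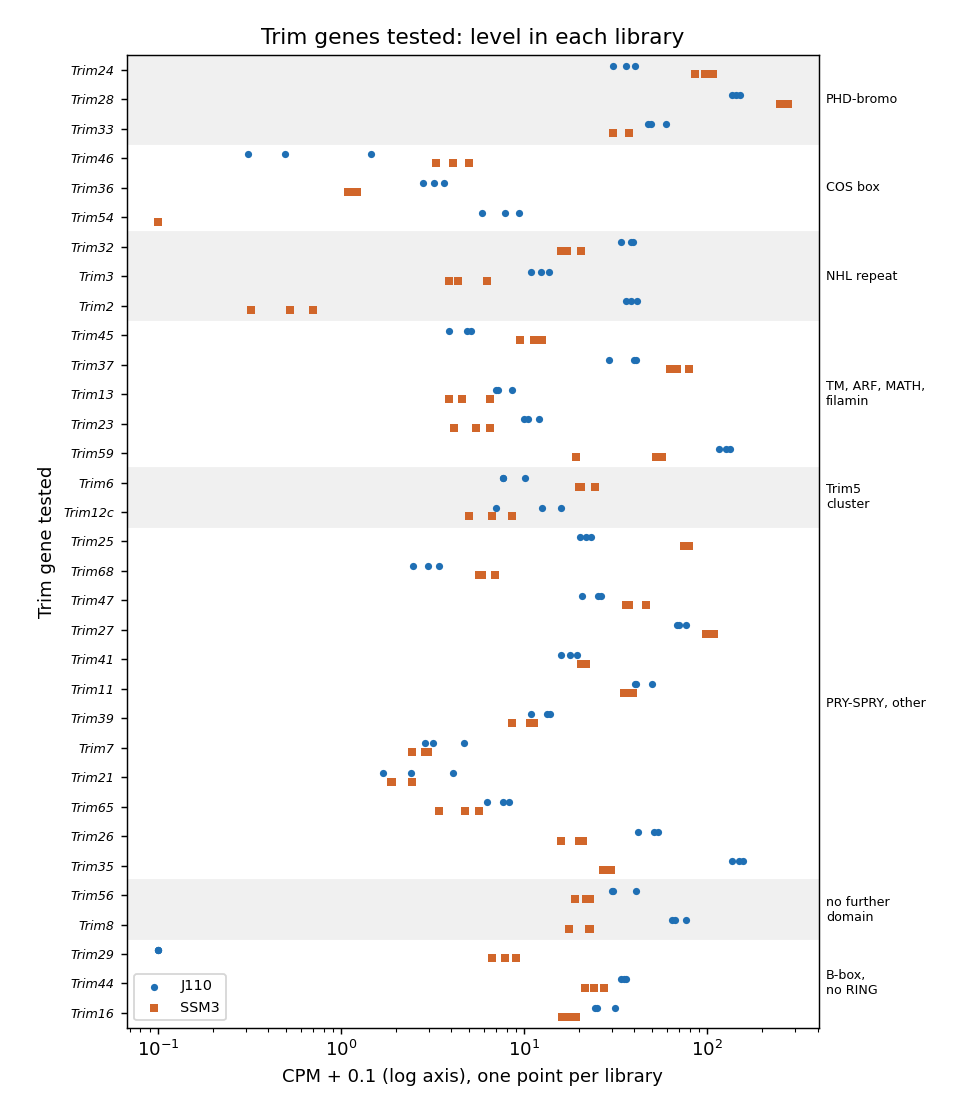
Level of each of the 33 Trim genes tested, as CPM plus 0.1 on a log axis, with 1 point per library, circles for J110 and squares for SSM3, grouped by the domain class of the protein. Trim29 sits at 0 CPM in all 3 J110 libraries and Trim54 at 0 CPM in all 3 SSM3 libraries, while Trim21, Trim7, Trim39 and Trim12c overlap between the lines.

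Trim25, which the study lists among genes that earlier work found induced by estrogen in human MCF7 cells, was about 3.54-fold higher in SSM3. Trim25 (ENSMUSG00000000275, chr11:88999376-89020293 in mm10, forward strand) encodes the ubiquitin ligase that modifies the RNA sensor RIG-I. It was counted 119, 109 and 96 times in J110 and 338, 349 and 399 times in SSM3. The lines did not overlap, and the mean rose from 21.5 ± 1.45 CPM in J110 to 76.3 ± 2.78 CPM in SSM3 (± SD over 3 libraries of each line). The log2 fold change was 1.82 ± 0.10 (SE, edgeR adjusted p = 7.12e-11), and it lay between 1.766 and 1.998 under 16 alternatives to the processing. Its exons overlap those of no other counted gene. No stretch of 75 bases in the last 500 bases of its annotated transcripts occurs in the transcript of another gene.

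Promoter sequences of RefSeq (GRCm38.p6), from 250 bases before to 50 after each annotated start, were at hand for 53 of the 68 members as 67 sequences. They were searched on both strands for the estrogen response element (GGTCA and TGACC with 3 bases of any kind between them), the interferon-stimulated response element (GAAA and GAAA with 2 bases of any kind between them), which a complex with STAT2 and IRF9 binds, and the gamma-activated site TTCNNNGAA of interferon gamma signalling. The estrogen response element was found in 0 of 67 member promoters and in 23 of all 32851 (0.07%). Only exact matches within these 300 bases were counted, and at so low a rate 0 of 67 cannot show that a member lacks the element. The interferon-stimulated element was found in 10 of the 67 (14.9%) against 1131 of 32851 (3.44%), and the gamma-activated site in 7 of the 67 (10.4%) against 2726 (8.3%). The 10 sequences with the interferon-stimulated element belong to 9 genes, Trim2, Trim5, Trim12a, Trim12c, Trim21, Trim26, Trim30a, Trim30d and Trim34a. Of these, 6 lie in 1 cluster of related genes on chromosome 7 and are not independent of each other. Only 4 of the 9 passed the filter on low counts, of which Trim2, Trim12c and Trim26 were lower in SSM3 and Trim21 was not called, where 38.6% of all genes tested were higher and 39.2% lower. The Trim12c call was lost in 3 of 16 alternatives. In Trim2 the element was in the promoter at chr3:84212789-84213088 and not in its other promoters. Trim30a, which holds the element in both its promoters and was not tested, had more counts in SSM3 (7, 10 and 15) than in J110 (2, 0 and 2). The promoters of Trim25, the interferon-inducible members Trim21 and Trim12c, and Trim26 are shown because they set the member with the best known estrogen link beside tested members that hold the interferon-stimulated letters. Capitals mark matches to the interferon-stimulated element on either strand, and in Trim21 and Trim26 a pair of matches overlaps. A match is a description of the letters and not a bound site.
The Trim25 promoter, chr11:88999153-88999452, forward strand, with no match to any of the 3 motifs: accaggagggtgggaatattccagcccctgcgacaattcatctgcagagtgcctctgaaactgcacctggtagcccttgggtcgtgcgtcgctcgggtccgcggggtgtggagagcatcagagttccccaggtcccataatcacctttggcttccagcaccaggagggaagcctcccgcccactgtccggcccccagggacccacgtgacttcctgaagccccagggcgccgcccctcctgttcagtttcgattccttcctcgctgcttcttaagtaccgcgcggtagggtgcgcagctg
The Trim21 promoter, chr7:102565433-102565732, reverse strand, with matches that begin 14 and 20 bases after the start: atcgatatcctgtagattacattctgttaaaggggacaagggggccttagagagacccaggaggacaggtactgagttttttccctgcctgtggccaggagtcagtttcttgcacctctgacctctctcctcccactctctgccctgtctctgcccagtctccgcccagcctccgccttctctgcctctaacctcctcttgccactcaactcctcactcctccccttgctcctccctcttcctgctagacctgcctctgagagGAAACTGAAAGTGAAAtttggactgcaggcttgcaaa
The Trim26 promoter, chr17:36836896-36837195, forward strand, with matches that begin 160 and 154 bases before the start: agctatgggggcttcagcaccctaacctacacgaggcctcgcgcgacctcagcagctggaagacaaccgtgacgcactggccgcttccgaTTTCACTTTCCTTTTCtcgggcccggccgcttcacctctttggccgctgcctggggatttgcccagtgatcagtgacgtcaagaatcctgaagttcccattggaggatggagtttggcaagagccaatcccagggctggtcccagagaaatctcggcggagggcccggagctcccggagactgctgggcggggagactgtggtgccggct
The Trim12c promoter, chr7:104353300-104353599, reverse strand, with a match that begins 29 bases before the start: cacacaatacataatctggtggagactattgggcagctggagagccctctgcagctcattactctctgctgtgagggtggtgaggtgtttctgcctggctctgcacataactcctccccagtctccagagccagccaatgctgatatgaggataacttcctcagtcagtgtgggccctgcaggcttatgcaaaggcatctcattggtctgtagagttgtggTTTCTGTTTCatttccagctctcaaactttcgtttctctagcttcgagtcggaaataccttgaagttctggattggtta

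Of the 4 chromatin cofactors of the family, whose proteins end in a PHD finger and a bromodomain, 3 were tested and all 3 were called, 2 higher and 1 lower in SSM3, where 77.9% of all genes tested were called. Trim24 (chr6:37870811-37966296, forward strand) encodes TIF1α, a cofactor of nuclear receptors. It was counted 209, 153 and 172 times in J110 and 436, 506 and 428 times in SSM3, a log2 fold change of 1.44 ± 0.12 (SE, edgeR adjusted p = 7.31e-09). Trim28 (chr7:12999114-13031035, forward strand), which encodes the KRAB corepressor KAP1, rose from 784, 728 and 653 counts in J110 to 1120, 1182 and 1378 in SSM3. Mean levels were 143.8 ± 7.44 CPM and 258 ± 13.9 CPM (± SD, n = 3) in that order, a log2 fold change of 0.84 ± 0.076 (SE, edgeR adjusted p = 3.37e-08). Trim33 (chr3:103279293-103358775, forward strand) encodes TIF1γ, which acts with SMAD proteins, and went the other way. It was counted 255, 302 and 227 times in J110 and 167, 144 and 152 times in SSM3, a log2 fold change of -0.68 ± 0.12 (SE, edgeR adjusted p = 9.04e-05). The libraries of the lines did not overlap for any of these genes. Trim66, the member of the class that was not tested, had 1 count in all 6 libraries together.

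All 3 tested members of the NHL repeat class were lower in SSM3, where 39.2% of all genes tested were lower. Trim2 (chr3:84160439-84306877, reverse strand), whose protein binds neurofilament light chain in neurons, was counted 185, 207 and 182 times in J110 and 1, 2 and 3 times in SSM3. SSM3 was thus at the floor, and the ratio of the summed counts after scaling was 90.5 (95% exact binomial interval 41.3 to 248, which covers counting error only). No SSM3 library exceeded the floor of 3 counts. The fitted log2 fold change of Trim2 was -6.42 ± 0.26 (SE, edgeR adjusted p = 1.26e-12). Trim3, a brain-expressed relative of Trim2, was counted 56, 62 and 65 times in J110 and 17, 20 and 31 times in SSM3, a log2 fold change of -1.35 (adjusted p = 5.67e-05). Trim32, the gene mutated in a limb-girdle muscular dystrophy, was counted 174, 197 and 183 times in J110 and 91, 80 and 79 times in SSM3, a log2 fold change of -1.07 (adjusted p = 2.36e-06). The fourth NHL member, Trim71, had no count in any library.

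Members with a COS box, which places proteins on microtubules, were called in both directions at low counts, 1 higher and 2 lower in SSM3 of 3 tested (background 77.9% called). Trim54 (chr5:31116712-31137630, forward strand), the muscle RING finger gene MuRF3, had 30, 47 and 37 counts in J110 and no count in SSM3. It was at least 11.4-fold lower in SSM3, taking the floor of 3 counts per library for SSM3 (edgeR adjusted p = 1.09e-07). Of the muscle markers, Ckm, Des, Myh1, Myod1, Myog and Tnnt3 had no count in any J110 library and the 8 muscle markers summed to between 1.98 and 2.89 CPM in J110, most of it Acta1, and between 0.995 and 1.56 CPM in SSM3. The other muscle RING finger genes were at the floor, Trim55 with no count and Trim63 with at most 3 counts in a library. Trim46 (chr3:89234177-89246309, reverse strand), which organises microtubules at the start of the axon, was counted 7, 2 and 1 times in J110 and 22, 15 and 20 times in SSM3, a log2 fold change of 2.55 ± 0.47 (SE, edgeR adjusted p = 0.000107). It shares exons with Krtcap2 on the opposite strand, which held 2691 counts in J110 and 4298 in SSM3, so the Trim46 value is uncertain. It was 3.598 without J110 replicate 1, which held 7 of its 10 counts in J110. The 6 neuronal markers summed to between 1.16 and 4.17 CPM in J110 and between 68.8 and 85.8 CPM in SSM3, nearly all of it Snap25, while Rbfox3, Stmn2 and Syt1 had no count in either line. The part of other cell types in this value was not tested. Trim36 had 14, 18 and 15 counts in J110 and 5 counts in each SSM3 library, a log2 fold change of -1.55 ± 0.36 (SE, edgeR adjusted p = 0.00106). Trim9, Trim42 and Trim67 had no count.

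Among members that lack a RING finger, Trim29 (chr9:43310848-43336115, forward strand), a gene of stratified and basal epithelia that is also known as ATDC, was seen in SSM3 only. It had no count in the 3 J110 libraries and 40, 31 and 39 counts in SSM3, at least 12.4-fold higher in SSM3 when 3 counts per library are taken as the floor of J110 (edgeR adjusted p = 4.35e-08). The 9 mammary epithelial markers summed to between 2751 and 2832 CPM in J110 and between 13646 and 14623 CPM in SSM3, of which Krt19 made up 7412 CPM on average in SSM3 against 18.6 CPM in J110 while Krt18 was lower in SSM3, and their part in the Trim29 difference was not tested. Trim44 was counted 185, 171 and 167 times in J110 and 108, 101 and 136 times in SSM3, a log2 fold change of -0.52 ± 0.13 (SE, edgeR adjusted p = 0.00124). Trim16, described as an estrogen-responsive B-box protein, was counted 125, 125 and 150 times in J110 and 78, 75 and 96 times in SSM3. Its log2 fold change was -0.61 ± 0.15 (SE, edgeR adjusted p = 0.00152), opposite in sign to that of Trim25. Trim14 had at most 6 counts in a library and was not tested.

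**Figure D2:**
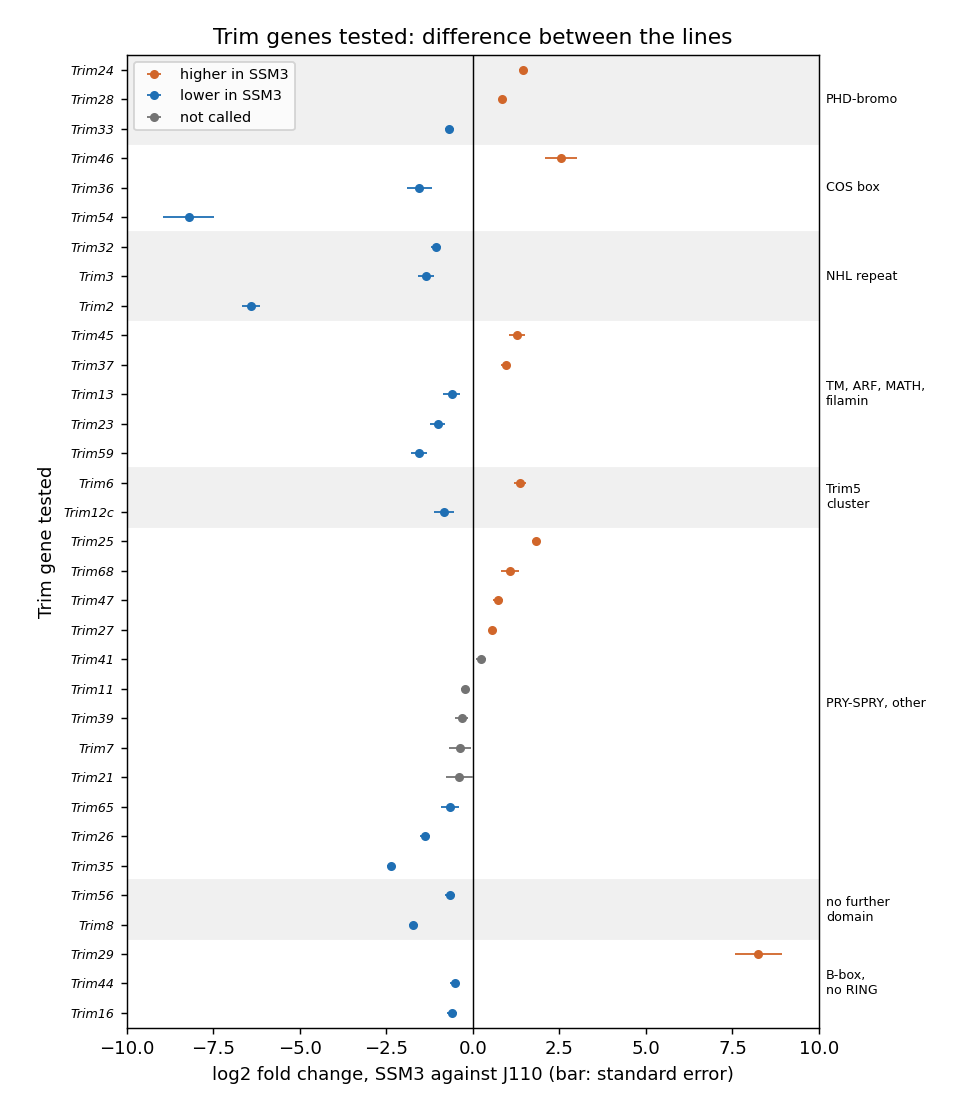
Log2 fold change, SSM3 against J110, of the 33 Trim genes tested, with the standard error as a bar, grouped by domain class and coloured by the call from edgeR's quasi-likelihood test at an adjusted p of 0.05. All 3 NHL repeat members and both members with no further domain lie below 0, the PHD-bromo members lie on both sides, and the values of Trim29 and Trim54, fitted against a line with no counts, depend on the prior count.

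Both tested members with no domain beyond the tripartite motif were lower in SSM3, against 39.2% of all genes tested. Trim8 (chr19:46501702-46516848, forward strand), a regulator of cytokine signalling that binds SOCS1, was counted 343, 385 and 305 times in J110 and 101, 82 and 114 times in SSM3. Its log2 fold change was -1.72 ± 0.12 (SE, edgeR adjusted p = 1.71e-09). Trim56, an interferon-inducible ligase that acts on the STING pathway, was counted 155, 153 and 196 times in J110 and 97, 89 and 115 times in SSM3, a log2 fold change of -0.67 ± 0.15 (SE, edgeR adjusted p = 0.000669).

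Members with a transmembrane, ARF, MATH or filamin domain at the C-terminus were all tested and all called, 2 higher and 3 lower in SSM3, a count of 5 that stands beside 77.9% called over all genes. Trim59 (chr3:69035288-69044755, reverse strand), a membrane protein linked to cell proliferation, was counted 690, 639 and 557 times in J110 and 253, 247 and 96 times in SSM3. The lines did not overlap, but SSM3 replicate 3 lay well below the other SSM3 libraries, and the log2 fold change of -1.57 ± 0.23 (SE, edgeR adjusted p = 9.08e-06) became -1.20 without it. Trim23, which carries an ARF domain, was counted 51, 60 and 50 times in J110 and 18, 30 and 27 times in SSM3, a log2 fold change of -1.02 (adjusted p = 0.000646). Trim13, a ligase of the endoplasmic reticulum membrane, was counted 44, 35 and 34 times in J110 and 17, 21 and 32 times in SSM3, a log2 fold change of -0.61 ± 0.25 (SE, edgeR adjusted p = 0.036). That call was lost without J110 replicate 1 (adjusted p = 0.114), without SSM3 replicate 1 (adjusted p = 0.130) and without SSM3 replicate 2 (adjusted p = 0.104), and 16 alternatives spanned an adjusted p of 0.0105 to 0.130. It was also lost with DESeq2 (adjusted p = 0.104) and with library size only (adjusted p = 0.123). Trim37 (chr11:87127077-87220683, forward strand), a ligase of peroxisomes and centrioles, was counted 210, 146 and 191 times in J110 and 282, 373 and 341 times in SSM3, a log2 fold change of 0.94 ± 0.13 (SE, edgeR adjusted p = 4.10e-06). Trim45, the filamin domain member, was counted 26, 24 and 18 times in J110 and 50, 44 and 62 times in SSM3, a log2 fold change of 1.27 (adjusted p = 8.35e-05).

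The PRY-SPRY members outside chromosome 7's Trim5 cluster are the most numerous class, with 26 members of which 12 were tested. Besides Trim25, 3 were higher in SSM3 and 3 lower, and 5 were not called (58.3% called, background 77.9%). Trim35 (chr14:66297031-66311424, forward strand), first found in a switch of blood cell lineage, was counted 811, 750 and 652 times in J110 and 129, 139 and 134 times in SSM3, a log2 fold change of -2.38 ± 0.096 (SE, edgeR adjusted p = 1.05e-12). Leukocyte markers summed to between 29.4 and 37.2 CPM in J110 and between 14.9 and 18.1 CPM in SSM3, with 4 of 10 above the floor in J110 and 2 of 10 in SSM3, and Ptprc had no count in J110. Their part in the Trim35 difference was not tested. Trim26 (chr17:36837134-36859398, forward strand), which lies near the major histocompatibility complex, was counted 266, 272 and 201 times in J110 and 94, 74 and 100 times in SSM3, a log2 fold change of -1.38 ± 0.14 (SE, edgeR adjusted p = 1.34e-07). Its neighbours Trim15, Trim10, Trim40 and Trim31 were not tested, and Trim15 was counted 2, 3 and 3 times in J110 and 10, 6 and 18 times in SSM3. Trim27, also called RET finger protein, was counted 396, 346 and 335 times in J110 and 483, 461 and 549 times in SSM3, a log2 fold change of 0.55 ± 0.087 (SE, edgeR adjusted p = 2.31e-05).

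In 3 pairs of neighbours both members were tested. Trim47 and Trim65 lie on the reverse strand of chromosome 11 and share exons, so reads at the shared part are uncertain for both. Trim47 was counted 130, 132 and 99 times in J110 and 208, 176 and 181 times in SSM3, a log2 fold change of 0.73 ± 0.14 (SE, edgeR adjusted p = 0.000131). Trim65, which ubiquitinates the RNA sensor MDA5, was counted 32, 41 and 36 times in J110 and 15, 22 and 28 times in SSM3, a log2 fold change of -0.67 ± 0.26 (SE, edgeR adjusted p = 0.0253). The Trim65 call was lost when J110 replicate 2, J110 replicate 3, SSM3 replicate 1 or SSM3 replicate 2 was left out, with an adjusted p of 0.0821, 0.0551, 0.106 and 0.0540 in that order and a range from 0.0142 to 0.106 over all alternatives. DESeq2 (adjusted p = 0.0809) and library size only (adjusted p = 0.0868) ended the Trim65 call too. Trim68 was counted 15, 12 and 16 times in J110 and 25, 32 and 29 times in SSM3, a log2 fold change of 1.07 (adjusted p = 0.00177). Its neighbour Trim21, a receptor for antibodies inside the cell and an interferon-inducible gene, was counted 12, 8 and 19 times in J110 and 8, 11 and 9 times in SSM3. The lines overlapped for Trim21, with a log2 fold change of -0.40 ± 0.39 (SE, edgeR adjusted p = 0.360), and without J110 replicate 3 it was 0.0019. Trim41 and Trim7, 8787 bases apart on chromosome 11, were not called. Trim41 was counted 92, 98 and 76 times in J110 and 97, 97 and 102 times in SSM3, a log2 fold change of 0.24 ± 0.14 (SE, edgeR adjusted p = 0.140), and Trim7 was counted 16, 14 and 22 times in J110 and 13, 11 and 14 times in SSM3, a log2 fold change of -0.37 ± 0.32 (SE, edgeR adjusted p = 0.292). Trim41 shares exons with Rack1 on the opposite strand, which held 22041 counts in J110 where Trim41 held 266. Trim7 shares exons with Gm16170 and with Gm12184 on the opposite strand, which held 27 counts in J110 and 20 in SSM3, so its value is uncertain too.

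The remaining members that were not called were Trim11 and Trim39. Trim11 was counted 208, 253 and 196 times in J110 and 157, 174 and 198 times in SSM3, a log2 fold change of -0.23 ± 0.12 (SE, edgeR adjusted p = 0.0742), although the CPM values of the lines did not overlap. Leaving out J110 replicate 1 brought the adjusted p to 0.0464, and the alternatives spanned 0.0464 to 0.652. Trim39, a regulator of apoptosis and the cell cycle, was counted 56, 67 and 66 times in J110 and 38, 50 and 56 times in SSM3, a log2 fold change of -0.32 ± 0.19 (SE, edgeR adjusted p = 0.138).

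The cluster of 10 genes around Trim5 on chromosome 7 is known for restriction of retroviruses and induction by interferon. Here 2 of the 10 were tested, 5 had too few counts and 3 had none. Trim6 (chr7:104218793-104235152, forward strand), whose protein makes free ubiquitin chains for the kinase IKKε, was counted 52, 38 and 36 times in J110 and 89, 114 and 102 times in SSM3. The lines did not overlap, and its log2 fold change was 1.35 ± 0.18 (SE, edgeR adjusted p = 2.77e-06). Trim12c (chr7:104338754-104353362, reverse strand), a mouse relative of TRIM5, was counted 82, 63 and 33 times in J110 and 38, 23 and 33 times in SSM3, so that the lines overlapped. Its log2 fold change of -0.83 ± 0.29 (SE, edgeR adjusted p = 0.0143) lost its call without J110 replicate 1 (adjusted p = 0.109) and without SSM3 replicate 2 (adjusted p = 0.0784), with library size only the adjusted p was 0.0511, and the alternatives spanned 0.000664 to 0.109. Trim30a, which restrains NF-κB signalling in mice, was counted 2, 0 and 2 times in J110 and 7, 10 and 15 times in SSM3 and did not pass the filter. Trim34a, Trim12a, Trim34b and Trim30b had at most 3 counts in any library, and Trim5, Trim30c and Trim30d had none. Genes of the cluster resemble each other, and 18.5% of the stretches of 75 bases at the ends of Trim30a transcripts also occur in Trim30d and 69.4% of those of Trim34a in other genes, among them Trim34b. The share was 5.54% for the ends of Trim12c and 1.28% for those of Trim6, in genes outside the cluster. Transcripts of Trim12c do hold stretches from the ends of its neighbours. The share was 20.3% for Trim5, in Trim12c and Gm4992, and 3.1% for Trim12a, in Trim12c and Trim5.

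**Figure D3:**
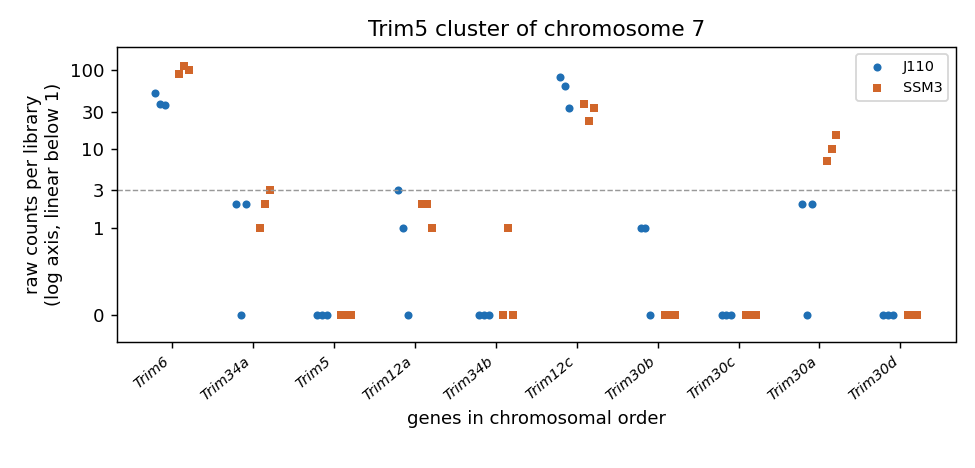
Raw counts of the 10 genes of the Trim5 cluster in chromosomal order, on a log axis that is linear below 1, with 1 point per library, circles for J110 and squares for SSM3, and a dashed line at the floor of 3 counts. Trim6 lies higher in SSM3, Trim12c overlaps between the lines, Trim30a lies above the floor in SSM3 only, and the other genes lie at or under the floor.

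Interferon-inducible members as a group went in no single direction. Of 14 such members, 5 were tested, of which Trim25 and Trim6 were higher in SSM3, Trim12c and Trim56 were lower and Trim21 was not called. This is 80% called, beside a background of 77.9%, with a median log2 fold change of -0.40. That median is the value of Trim21 itself, which was 0.0019 without J110 replicate 3. The other 9 members of the list were at low counts or at 0.

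The untested members with counts outside that cluster were mostly close to the floor. Trim43b, 1 of 3 close copies on chromosome 9 of which the others held 1 count together, was counted 11, 7 and 17 times in J110 and 2, 1 and 3 times in SSM3. Trim62 was counted 2, 4 and 11 times in J110 and 0, 0 and 2 times in SSM3, and Trim17 was counted 9, 8 and 5 times in J110 and 7, 4 and 10 times in SSM3. Trim10, Trim14, Trim31, Trim38, Trim40, Trim63, Trim66, Trim69 and Trim43c had at most 6 counts in any library. Members without a count, beside those named above, were Trim43a, Trim50, Trim52, Trim58, Trim60, Trim61, Trim72, Trim75 and Trim80. For these a level up to the floor was not detectable at this depth.

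A list of genes of nucleic acid sensing was built around RIG-I, the target of TRIM25, and also holds the DNA sensing genes Cgas and Tmem173. Of its 17 genes, 16 were tested, with 9 higher, 4 lower and 3 not called, and a median log2 fold change of 0.25. Here 81.2% were called, beside the background of 77.9%, and 56.2% were higher, beside 38.6%. Ddx58, which encodes RIG-I itself, was counted 20, 41 and 17 times in J110 and 144, 168 and 168 times in SSM3, a log2 fold change of 2.70 ± 0.22 (SE, edgeR adjusted p = 8.09e-09). Ifih1, which encodes MDA5, and Rnf135, a ligase that also acts on RIG-I, had log2 fold changes of 2.18 (adjusted p = 5.32e-06) and 1.15 (adjusted p = 0.000190). Among the genes lower in SSM3, Cgas, the sensor of cytosolic DNA, was counted 75, 58 and 75 times in J110 and 1, 2 and 0 times in SSM3, with a ratio of summed counts of 65.6 (95% exact binomial interval 22.1 to 321). Its SSM3 libraries were under the floor, and the fitted log2 fold change of Cgas was -5.87, or -6.73 without SSM3 replicate 2. Cgas shares exons with the locus Gm8093 and is uncertain. Usp15, a deubiquitinase that acts on TRIM25 and whose gene shares exons with Gm4129, had a log2 fold change of -2.25 (adjusted p = 1.59e-10) and the kinase gene Tbk1 one of -1.42 (adjusted p = 7.23e-07).

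The receptors and STAT genes of interferon signalling were called in both directions. All 18 listed genes were tested, 8 were higher in SSM3, 5 were lower and 5 were not called, which is 72.2% called beside the background of 77.9%. Jak2 was counted 160, 165 and 156 times in J110 and 1669, 1965 and 1971 times in SSM3, a log2 fold change of 3.62 ± 0.086 (SE, edgeR adjusted p = 1.53e-15). Stat2 and Irf9, whose proteins take part in the complex that binds the interferon-stimulated element, had log2 fold changes of 2.61 (adjusted p = 2.70e-09) and 2.35 (adjusted p = 5.40e-11), and Irf9 shares exons with Rnf31. The receptor genes Ifngr1 and Ifnar1 were lower in SSM3, with log2 fold changes of -2.69 (adjusted p = 2.91e-09) and -1.37 (adjusted p = 0.000116). Socs1, an inhibitor of JAK kinases that TRIM8 binds, was counted 22, 20 and 18 times in J110 and 2, 2 and 5 times in SSM3, a log2 fold change of -2.61 (adjusted p = 1.91e-05).

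The partners of the chromatin cofactors were also called in both directions, with 5 of 19 tested genes higher in SSM3, 9 lower and 5 not called (73.7% called, background 77.9%). The median log2 fold change of this list was -0.17. Chd3, a remodelling enzyme that KAP1 recruits, and Atf7ip, a partner of the methyltransferase SETDB1, had log2 fold changes of 1.70 (edgeR adjusted p = 3.04e-11) and 1.32 (adjusted p = 1.28e-09), and Smad3 one of 0.75 (adjusted p = 6.83e-06). Rara, the retinoic acid receptor gene, Resf1 and Morc3 were lower in SSM3, with log2 fold changes of -2.05 (adjusted p = 4.39e-08), -1.58 (adjusted p = 3.34e-08) and -1.52 (adjusted p = 1.29e-06). Atf7ip shares exons with Gm44140. Setdb1 itself was not called, with J110 counts of 579, 550 and 471 and SSM3 counts of 534, 468 and 431.

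**Figure D4:**
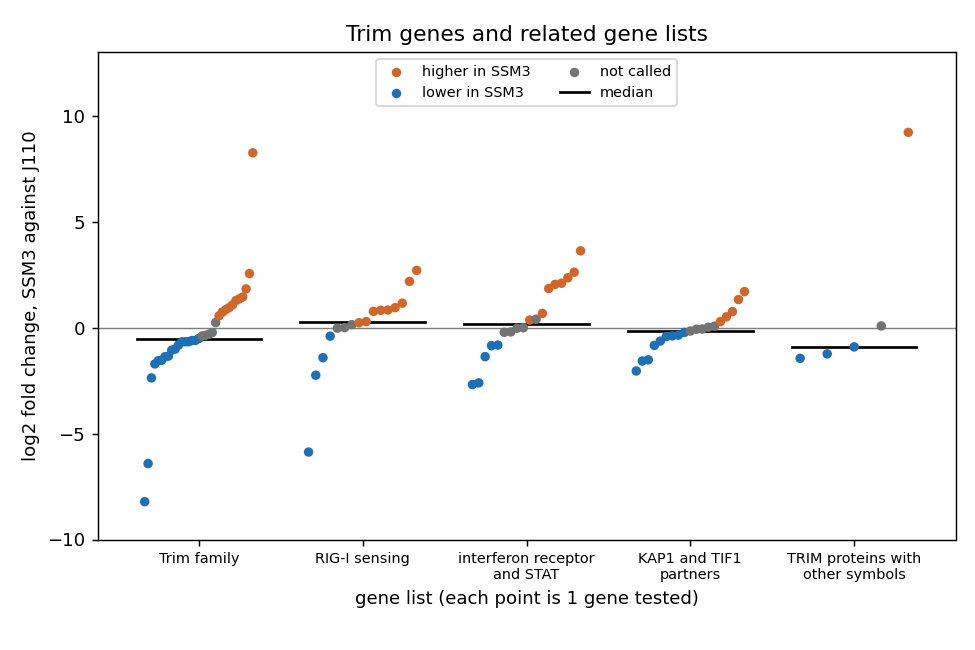
Log2 fold change, SSM3 against J110, of each gene tested in the Trim family and in 4 lists of related genes, sorted within each list, coloured by the call from edgeR's test, with a black line at the median. Every list holds genes in both directions, with a median of -0.52 for the Trim family, 0.25 for RIG-I sensing, 0.17 for the interferon receptor and STAT genes, -0.17 for the KAP1 and TIF1 partners and -0.91 for TRIM proteins with other symbols.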

How the data were processed

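RNA of cultured J110 and SSM3 cells (3 biological replicates each) was made into QuantSeq 3′ libraries. The authors trimmed the reads with cutadapt (2.1), mapped them to mm10 with HISAT2 (2.0.4), counted them with featureCounts (Subread 2.0.0) and deposited raw counts per gene, with no normalisation. The strand setting and the handling of overlapping genes are not given in the sources used here, so genes that share exons are uncertain. Among members tested these are Trim7, Trim16, Trim35, Trim41, Trim46, Trim47, Trim54 and Trim65. Of the identifiers, 99.7% matched GENCODE M21 (GRCm38), which gave symbols and coordinates.

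Low counts were removed by filterByExpr and TMM set the library scale, after which edgeR (4.0.16, in R 4.3.3) compared SSM3 with J110 by its quasi-likelihood F-test over 12284 genes, with Benjamini-Hochberg adjustment. The standard error was the log2 fold change divided by the square root of F. SD values are over 3 libraries, and p-values measure the spread between those libraries. The biological coefficient of variation was 8.30%. Replicates of one line differed by more than sampling noise (chi-square per degree of freedom from 2.21 to 5.62). Intervals and floors cover counting error only, as no molecular identifiers are described.

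Members, gene lists and domain classes (assigned from general knowledge) were chosen with earlier results of these data known. Named with full statistics were Trim25, the 8 largest changes in each direction, the member of highest level in each class, uncalled members and neighbours within 200 kb. Of each list of related genes, up to 3 changes in each direction were named. Setdb1, Trim15 and the members near the floor were named after their values were seen. On counts simulated for 12284 genes, 88 of 100 genes changed by a factor of 2 and 97 of 100 changed by a factor of 4 were recovered, with 14 false calls among 199. No other genes were changed there, while 77.9% of genes tested were called in the data, so these rates may not carry over. In all, 16 alternatives were run, with DESeq2 (1.42.0) and limma-voom (3.58.1) among them. Exon overlaps came from bedtools 2.31.1. A gene that bears on the lists used is not reported here.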

Additional observations from a re-analysis of the deposited data

How the results depend on the processing

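Over the 10 alternatives other than leaving out a library, between 9 and 13 members were called higher in SSM3 and between 13 and 19 lower, and leaving out each library in turn gave 11 to 13 higher and 15 to 18 lower. The members tested differed between these settings, from 25 without genes that share exons to 51 with at least 1 count in any library. The latter fit gave the largest counts, 13 and 19, and its p-values carry little of the spread between replicates. With a library left out, 34 or 35 members were tested. Without genes that share exons, 3063 genes in all were called higher and 3163 lower of 7918 tested, as fewer genes were tested. Library size only, without TMM, put the median over all genes at 0.16 and over the members at -0.35 on the log2 scale, a shift that applies to every gene. Among the log2 fold changes of single members, 495 values under an alternative kept their direction and call, 15 lost their call, 3 gained one and 1 turned, which was Trim21 at 0.0019 without J110 replicate 3, where leaving out each library spanned -0.66 to 0.0019. The calls lost were those of Trim12c, Trim13 and Trim65 (all 3 with library size only, the latter pair with DESeq2 too), and those gained were of Trim11 (upper quartile scaling and without J110 replicate 1) and Trim41 (library size only). The causes were not tested. Same-numbered replicates of the lines share only a number: their deviations correlated at 0.016, 0.014 and 0.036, though each library correlated best with its own number, and the replicate block gave 11 members higher and 16 lower, the one lost being Trim13 (adjusted p = 0.0550), with 24 related genes higher and 21 lower, and 4705 of all genes higher and 4776 lower. Members under the floor of 3 counts are limited by depth.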

Other observations

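TRIM proteins whose genes carry other symbols were not members by the rule. Of 10 listed, 5 were tested, 1 was higher in SSM3, 3 were lower and 1 was not called (80% called, where 77.9% of all genes tested were called). Pml, the gene of nuclear bodies, was counted 168, 151 and 164 times in J110 and 70, 83 and 90 times in SSM3, a log2 fold change of -0.91 (edgeR adjusted p = 9.79e-06). Mid1, a microtubule-bound ligase, was counted 39, 49 and 34 times in J110 and 12, 11 and 19 times in SSM3, a log2 fold change of -1.45 (adjusted p = 0.000134), while its paralogue Mid2 was counted 34, 54 and 34 times in J110 and 48, 47 and 26 times in SSM3 and was not called (adjusted p = 0.811). Bspry, which has a B-box and a SPRY domain, was counted 0, 0 and 1 times in J110 and 254, 229 and 293 times in SSM3, with a ratio of summed counts of 820.2 (95% exact binomial interval 147 to 32437, which covers counting error only), so that J110 was under the floor of 3 counts and its single count was in replicate 3. Rnf207 had a log2 fold change of -1.24 (adjusted p = 6.00e-06), and Mid1, Pml and Rnf207 share exons with other counted genes.

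When genes needed no more than a single count anywhere to enter the fit, 11123 of the 22592 genes tested were called. Of 51 members tested there, 13 were higher and 19 lower in SSM3, which made 4 further members called. Trim30a had a log2 fold change of 2.98 ± 0.67 (SE, edgeR adjusted p = 3.04e-05), Trim15 one of 2.13 ± 0.57 (SE, edgeR adjusted p = 0.000485), Trim43b one of -2.38 ± 0.61 (SE, edgeR adjusted p = 0.000237) and Trim62 one of -2.79 ± 0.96 (SE, edgeR adjusted p = 0.00835). These p-values carry little of the spread between replicates, as the adjusted p of Trim59, whose SSM3 replicate 3 lay far below the others, went from 9.08e-06 to 6.74e-49 in the same fit, and the 4 calls are no firmer than their counts. The lines overlapped for Trim62, with 11 of its J110 counts in replicate 3. The ends of Trim43b transcripts share 24.9% of their stretches of 75 bases with Trim43a and Trim43c.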
